A study of Homo sapiens with 13 samples.

Results

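Transcripts of 9 human genes that carry calcium and metabolites across the mitochondrial membranes, or open the inner membrane, were followed in 13 RNA-seq libraries of AC16 cells. They are MCU, MCUB and SMDT1 of the uniporter pore, MICU2 of its gate, SLC8B1 of calcium export, VDAC1, VDAC2 and VDAC3 of the outer membrane, and PPIF, which encodes cyclophilin D. The genes were chosen by name, and their rows were taken from the 63241 gene IDs counted in each library. All 9 passed the filter on low counts.

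AC16 is an immortal human line derived from a fusion of ventricular cardiomyocytes and virally transformed fibroblasts. FCCP carries protons across the inner mitochondrial membrane and so dissipates its potential. The study asked how preconditioning of mitochondria with the optogenetic construct mOpto alters the response to FCCP. There were 3 preconditioning+FCCP libraries, 3 FCCP libraries, 4 preconditioning libraries and 3 control libraries, all labelled with a wildtype genotype. No dose, time, light regime or promoter of the construct is given in the labels, nor whether FCCP and control cells carried the construct or received light. The labels do not say that replicates were separate cultures, so the p-values rest on a spread between libraries that may be technical.

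Calcium enters the mitochondrial matrix through the uniporter, a channel of the inner membrane built around MCU. The small subunit EMRE, the product of SMDT1, is needed for this channel to conduct and to respond to MICU proteins. MICU proteins close the channel at low calcium, MCUB replaces MCU in the pore and lowers its conductance, and the exchanger encoded by SLC8B1, also called NCLX, returns calcium to the cytosol in exchange for sodium. VDACs let metabolites and calcium pass the outer membrane, and cyclophilin D promotes opening of the permeability transition pore, by which heart cells lose their membrane potential after calcium overload.

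Promoters are shown for the 4 genes that passed the test in some comparison and are in the promoter table used, so that the start sites of PPIF, SMDT1, MCUB and VDAC1 can be compared. Each runs from 250 bases before to 50 bases after the annotated start in RefSeq, build GRCh38.p14, written 5′ to 3′ on the strand of the gene. PPIF lies at chr10:79347219-79347518 and SMDT1 at chr22:42079450-42079749, both on the plus strand. MCUB lies at chr4:109559996-109560295 on the plus strand and VDAC1 at chr5:134070962-134071261 on the minus strand. Capitals mark GGGCGG, the core of the Sp1 site, and CCAAT, on either strand.
PPIF: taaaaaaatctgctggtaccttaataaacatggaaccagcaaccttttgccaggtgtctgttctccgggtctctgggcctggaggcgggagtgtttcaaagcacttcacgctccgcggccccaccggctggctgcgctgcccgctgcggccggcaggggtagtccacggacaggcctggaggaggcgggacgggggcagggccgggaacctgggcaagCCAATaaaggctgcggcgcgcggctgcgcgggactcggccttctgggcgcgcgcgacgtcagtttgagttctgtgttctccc
SMDT1: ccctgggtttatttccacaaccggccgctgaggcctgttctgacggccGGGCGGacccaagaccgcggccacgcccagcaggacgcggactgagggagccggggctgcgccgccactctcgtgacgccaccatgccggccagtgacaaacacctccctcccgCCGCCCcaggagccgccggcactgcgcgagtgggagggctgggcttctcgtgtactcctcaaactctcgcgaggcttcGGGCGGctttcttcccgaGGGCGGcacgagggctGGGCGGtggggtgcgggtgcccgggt
MCUB: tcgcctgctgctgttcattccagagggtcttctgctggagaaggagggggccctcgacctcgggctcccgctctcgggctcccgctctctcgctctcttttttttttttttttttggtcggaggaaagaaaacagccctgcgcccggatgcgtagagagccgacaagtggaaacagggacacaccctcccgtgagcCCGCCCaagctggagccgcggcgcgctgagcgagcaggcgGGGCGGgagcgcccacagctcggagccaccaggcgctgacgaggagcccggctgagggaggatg
VDAC1: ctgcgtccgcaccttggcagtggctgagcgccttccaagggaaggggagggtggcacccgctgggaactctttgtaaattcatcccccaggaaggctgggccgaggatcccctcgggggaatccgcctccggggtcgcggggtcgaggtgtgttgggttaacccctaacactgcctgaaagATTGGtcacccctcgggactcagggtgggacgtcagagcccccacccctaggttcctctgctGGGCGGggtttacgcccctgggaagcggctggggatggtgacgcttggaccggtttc

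Of the 9 genes, 8 were matched in the promoter table. GGGCGG was found in 6 of the 8 windows, with 5 copies in SMDT1, 3 in SLC8B1, 2 in MCUB and 1 each in MCU, MICU2 and VDAC1, and 45% of all 35116 windows of 300 bases hold it. CCAAT was found in MCU, VDAC1 and PPIF, and 34.6% of all windows hold it. Neither the motif of nuclear respiratory factor 1, nor TGACGTCA of cyclic AMP response elements, nor TNAAGGTCA of estrogen-related receptors was found in these 8 windows. The shares of all windows with these letters are 5.78%, 1.85% and 0.951%, in the order named. Both strands were read, no searched motif overlaps another in the windows shown, and a match describes the letters only.

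Gene counts summed to 14970803 to 20636229 per library, and all library pairs of 1 group differed by more than sampling noise (lowest chi-square per degree of freedom 3.21). Reads aligned to several places made up 7.13% to 11.5% of the reads in preconditioning+FCCP 3, FCCP 1 to 3 and control 1 and 2, called the higher-share set. They made up 3.16% to 5.22% in preconditioning+FCCP 1 and 2, preconditioning 1 to 4 and control 3, called the lower-share set. Transcripts of the mitochondrial genome made up 1.33% to 6.42% of gene counts in preconditioning+FCCP, 1.55% to 6.49% in FCCP, 1.00% to 1.85% in preconditioning and 3.00% to 9.58% in control libraries, and leaving them out changed no call among the 9 genes. Control 3 thus stands apart from the other control libraries, and results that rest on it are given with and without it. Preconditioning+FCCP 3 (6.42%) and FCCP 1 (6.49%) also stand apart in the mitochondrial share of their groups. A fit without all 3 of these libraries is given among the alternatives. Scaling by library totals alone in place of TMM shifted the median log2 change of all genes to 0.16 in preconditioning+FCCP against control, 0.19 in preconditioning+FCCP against FCCP, 0.11 in preconditioning+FCCP against preconditioning and 0.14 in the interaction. With it, 65.1% of called genes were higher in preconditioning+FCCP against control, compared with 48.0% under TMM, and 64.1% compared with 50.3% in preconditioning+FCCP against FCCP. The same shares were 55.2% and 44.7% for preconditioning against control, and 58.0% and 45.4% for FCCP against control.

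The labels call the cells myocytes. Of 18 cardiomyocyte markers, 5 were abundant enough to be tested, TNNT2 was at 0 in all libraries, and the list summed to 5.56 to 8.47 CPM in preconditioning+FCCP, 4.86 to 10.6 CPM in FCCP, 5.86 to 12.1 CPM in preconditioning and 5.04 to 13.7 CPM in control libraries. The data therefore show little transcript of defining heart muscle genes. All 12 fibroblast markers were tested, and they summed to 1588 to 3178 CPM in preconditioning+FCCP, against 7553 to 9616 CPM in FCCP, 7137 to 7677 CPM in preconditioning and 5809 to 12821 CPM in control libraries. Of these markers, 10 fell in preconditioning+FCCP against control, 10 against FCCP and 11 against preconditioning. Over all tested genes, 16.2%, 17.7% and 19.2% were called lower in these comparisons, in that order. Of 7 tested smooth muscle markers, 3, 4 and 3 fell in the same comparisons and 0 rose, and the list summed to 508 to 1305 CPM in preconditioning+FCCP, 1793 to 2247 CPM in FCCP, 1171 to 1558 CPM in preconditioning and 1317 to 2653 CPM in control libraries. Of 6 tested endothelial markers, 2, 2 and 3 fell and 0 rose, with sums of 126 to 162 CPM in preconditioning+FCCP, 180 to 277 CPM in FCCP, 214 to 306 CPM in preconditioning and 196 to 327 CPM in control libraries. Immune markers summed to at most 9.73 CPM in any library. The part of these markers in the changes described here was not tested, and in bulk libraries fewer cells of a type and less RNA per cell cannot be told apart.

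Levels of different genes were compared per kilobase of exon, as TMM-scaled CPM divided by the summed exon length. VDAC1 had the highest mean level per length, 107.5 ± 32.1 CPM per kb (SD, n = 13 libraries). It was followed by VDAC2 with 61.0 ± 9.18, VDAC3 with 52.5 ± 16.4 and PPIF with 50.3 ± 20.8 CPM per kb, whose means differ by less than the SD of VDAC3. SMDT1 had 22.5 ± 10.3, MICU2 14.4 ± 3.72, MCU 11.4 ± 2.28, MCUB 10.2 ± 2.13 and SLC8B1 4.95 ± 0.765 CPM per kb. Among SMDT1, MICU2, MCU and MCUB, each mean differed from the next by less than the larger SD of the pair, and SLC8B1 lay below all of them. With the longest transcript as the length, the mean of VDAC3 was 121.6 CPM per kb, above 110.7 for VDAC2, and that of MICU2 was 27.3, above 24.9 for SMDT1, while the order of the other 5 genes was the same. The mean of each outer membrane channel lay above that of each uniporter gene, whichever length was used. In the FCCP libraries the nearest pair was VDAC3, with 54.8 ± 6.39 CPM per kb, and SMDT1, with 38.8 ± 3.64 CPM per kb (SD, n = 3).

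**Figure D1:**
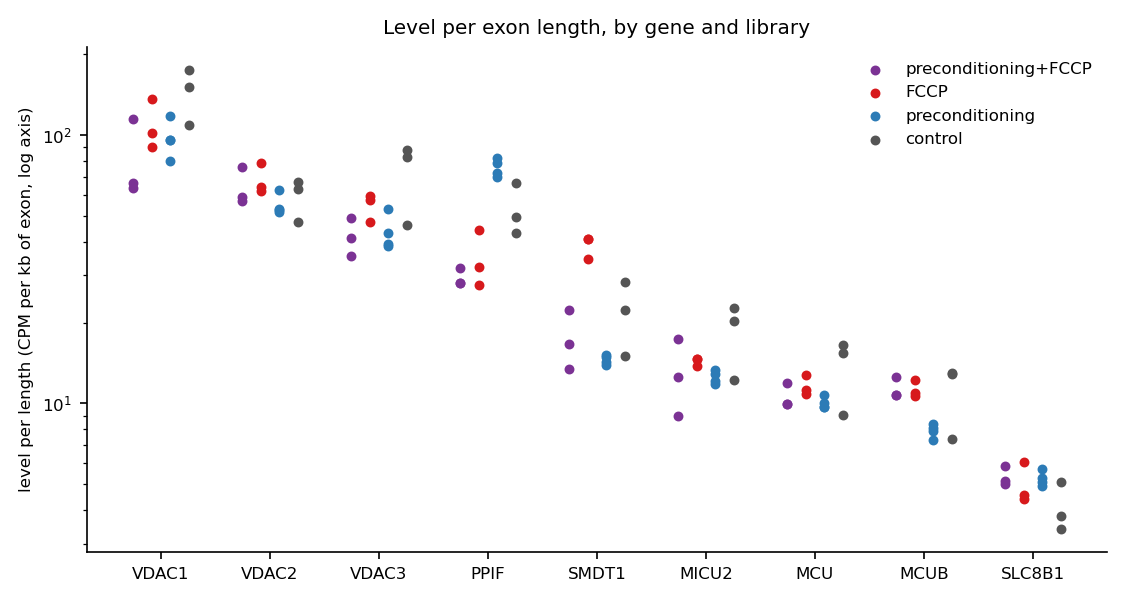
Level per exon length (CPM per kb, log axis) of each gene in each of the 13 libraries, with points coloured by group and genes ordered by their mean. VDAC1 lies at the top with a mean of 107.5 CPM per kb and SLC8B1 at the bottom with 4.95 CPM per kb.

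The widest ranges over the 13 libraries were those of SMDT1, whose highest CPM was 3.05 times its lowest, and PPIF, with 2.98 times. The narrowest was that of VDAC2, with 1.66 times. SMDT1 was highest in FCCP 3 and lowest in preconditioning+FCCP 2, while PPIF was highest in preconditioning 3 and lowest in FCCP 1. The 2 genes with the widest range were therefore high in different groups.

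**Figure D2:**
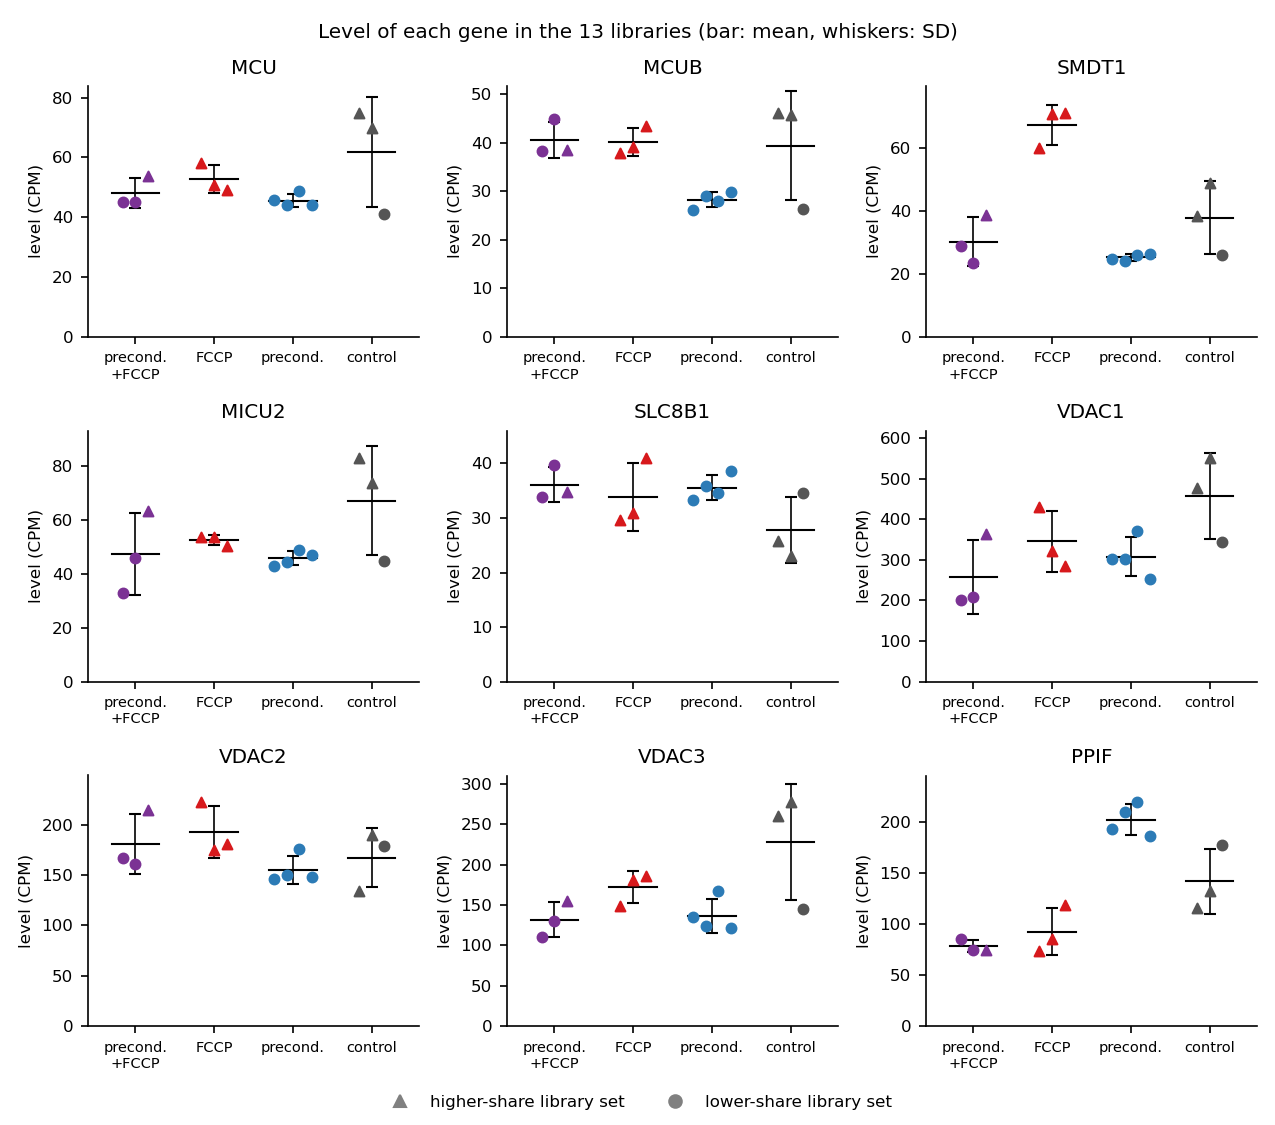
Level (CPM) of each of the 9 genes in every library, by group, with the mean as a bar and the SD as whiskers. Triangles are libraries of the higher-share set and circles those of the lower-share set. PPIF was highest in the 4 preconditioning libraries (187 to 219 CPM), SMDT1 in the 3 FCCP libraries (60.0 to 71.0 CPM), and control 3 lies apart from controls 1 and 2 in most panels.

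The uniporter's essential small subunit showed its highest level in FCCP libraries and lower levels in preconditioning+FCCP libraries, and it also split by library set. SMDT1 (ENSG00000183172) had 28.7, 23.3 and 38.6 CPM in the preconditioning+FCCP libraries, against 60.0, 70.7 and 71.0 CPM in the FCCP libraries. In the preconditioning libraries it had 24.6, 24.1, 25.9 and 26.3 CPM, and in the control libraries 38.5, 48.9 and 26.1 CPM. The preconditioning+FCCP and FCCP libraries do not overlap, and preconditioning+FCCP 3 was the nearest to the FCCP libraries. SMDT1 fell in preconditioning+FCCP against FCCP, with a log2 change of -1.15 ± 0.23 (SE), a fold of 0.449 and an adjusted p of 0.00169. It was the single one of the 9 genes called in this comparison, in which 35.7% of the 16756 tested genes were called, and 17.7% called lower, and in 21.3% of genes all preconditioning+FCCP libraries lay below all FCCP libraries. The call was kept in 25 of 25 alternative settings, with log2 changes of -1.46 to -0.74, the smallest with a term for the library set (adjusted p = 0.0165). Within the higher-share set the values were 38.6 CPM in the 1 preconditioning+FCCP library and 60.0 to 71.0 CPM in the FCCP libraries, while no FCCP library lay in the lower-share set. Across all groups, lower-share libraries had 23.3 to 28.7 CPM and higher-share libraries 38.5 to 71.0 CPM, with no overlap. Because preconditioning+FCCP 1 and 2 were lower-share and all FCCP libraries higher-share, library set and treatment cannot be fully told apart here.

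All FCCP libraries also lay above all control libraries for SMDT1, as was so for 8.84% of genes in that direction. The log2 change of FCCP against control was 0.83 ± 0.23 (95% interval 0.35 to 1.31), with an adjusted p of 0.0544. That value missed the threshold, as it did in 16 of 25 alternatives, and the adjusted p over the alternatives was 0.0106 to 0.230. It was 0.0125 with DESeq2 and 0.0347 with the library set term, and 0.111 without control 3, 0.140 with the replicate block and 0.230 with the compared groups alone. None of the 9 genes was called in this comparison by edgeR, in which 3.52% of all genes were called, while 2 of them (SMDT1 and PPIF) had an unadjusted p under 0.05, and DESeq2 and limma-voom called 1 each. Preconditioning against control gave SMDT1 a log2 change of -0.58 with an adjusted p of 0.0545, and preconditioning+FCCP against preconditioning gave 0.26 with an adjusted p of 0.345. The interaction subtracts the FCCP effect in cells without preconditioning from that in preconditioned cells, and it was -0.57 ± 0.31 (adjusted p = 0.204).

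The pore-forming subunit itself varied little between treated groups. MCU (ENSG00000156026) had 45.1, 45.1 and 53.8 CPM in preconditioning+FCCP, 58.0, 50.9 and 49.2 CPM in FCCP, and 44.0 to 48.6 CPM in preconditioning libraries. The control libraries had 74.9, 69.9 and 40.9 CPM, so that controls 1 and 2 lay above and control 3 below every treated library. By library set, lower-share libraries had 40.9 to 48.6 CPM and higher-share libraries 49.2 to 74.9 CPM, with no overlap. MCU was called in none of the 5 pairwise comparisons. Its log2 change was -0.37 (95% interval -0.79 to 0.06) for preconditioning+FCCP against control, -0.44 (-0.84 to -0.05) for preconditioning against control and -0.23 (-0.66 to 0.19) for FCCP against control.

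MCUB (ENSG00000005059), the paralogue that lowers uniporter conductance, had its lowest group mean in the preconditioning libraries, and control 3 lay within their range. It had 38.3, 44.8 and 38.4 CPM in preconditioning+FCCP libraries, against 26.1, 28.9, 28.05 and 29.9 CPM in preconditioning libraries. In FCCP libraries it had 37.9, 39.0 and 43.4 CPM, and in control libraries 46.2, 45.8 and 26.3 CPM. All preconditioning+FCCP libraries lay above all preconditioning libraries, as was so for 26.6% of genes in that direction. MCUB rose in preconditioning+FCCP against preconditioning, with a log2 change of 0.52 ± 0.19 and an adjusted p of 0.0382, in a comparison in which 39.4% of genes were called and 20.2% were called higher. This call was close to the threshold: 11 of 25 alternatives kept it. It was lost without any 1 of the 4 preconditioning libraries, of the 3 preconditioning+FCCP libraries, of FCCP 2 and 3, or of control 2, with log2 changes of 0.41 to 0.55 and adjusted p of 0.0511 to 0.173 in those fits. It was also lost with no filter on low counts, the library set term or the length and GC trend (adjusted p of 0.101, 0.0679 and 0.0955). Within the lower-share set the direction was the same, with 38.3 and 44.8 CPM in preconditioning+FCCP 1 and 2 against 26.1 to 29.9 CPM in the preconditioning libraries. The exons of MCUB share 105 bases with CASP6 on the opposite strand in GENCODE 29, and reads there may not have been told apart.

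Within a library, the level of SMDT1 per length was set against that of MCU, since EMRE and MCU stand in the same complex. The ratio was 1.63 ± 0.264 in preconditioning+FCCP libraries (range 1.35 to 1.88) and 3.37 ± 0.583 in FCCP libraries (2.71 to 3.78). It was 1.45 ± 0.0769 in preconditioning and 1.62 ± 0.248 in control libraries. Every FCCP library lay above the other 10 libraries, and the other 3 groups overlap. The ratio of MCU to MCUB per length was 0.940 ± 0.155 in preconditioning+FCCP, 1.04 ± 0.157 in FCCP, 1.27 ± 0.110 in preconditioning and 1.23 ± 0.0389 in control libraries. Control 3 lay within the range of the other control libraries for this ratio, unlike for the level of either gene. These ratios are descriptions of the transcripts and were given no test.

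**Figure D3:**
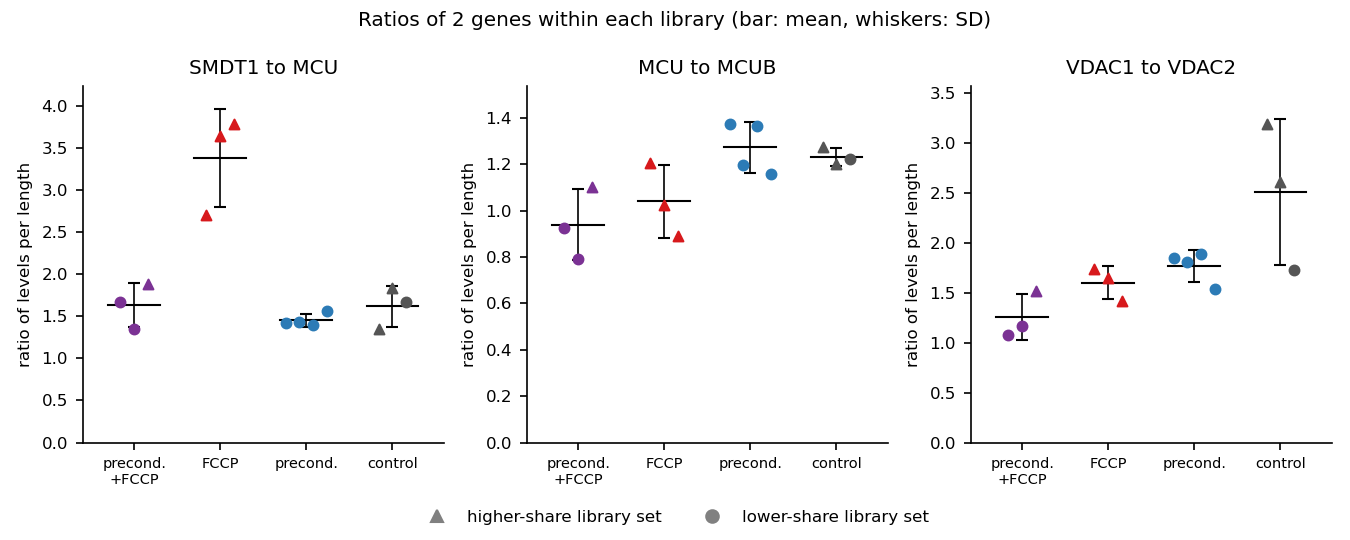
Ratio of the levels per length of 2 genes within each library, by group, for SMDT1 to MCU, MCU to MCUB and VDAC1 to VDAC2. Bars are means and whiskers are SD, triangles mark the higher-share and circles the lower-share library set. The SMDT1 to MCU ratio of the FCCP libraries (2.71 to 3.78) lies above that of the other 10 libraries.

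The gatekeeper MICU2 and the exporter SLC8B1 were called in no comparison. MICU2 (ENSG00000165487) had 32.8, 45.7 and 63.3 CPM in preconditioning+FCCP, 50.1 to 53.5 CPM in FCCP, 42.9 to 48.6 CPM in preconditioning, and 83.0, 73.6 and 44.6 CPM in control libraries. Control 3 lay away from controls 1 and 2 and within the range of the other lower-share libraries (32.8 to 48.6 CPM). Every higher-share library, whatever its group, had 50.1 to 83.0 CPM. The log2 change of MICU2 was -0.50 ± 0.24 (95% interval -1.01 to -0.00064) in preconditioning+FCCP against control, with an adjusted p of 0.116.

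SLC8B1 (ENSG00000089060) ran the other way. It had 33.8, 39.7 and 34.8 CPM in preconditioning+FCCP, 29.7, 30.9 and 41.1 CPM in FCCP, 33.3 to 38.6 CPM in preconditioning, and 25.9, 23.0 and 34.5 CPM in control libraries. Controls 1 and 2 were the lowest of the 13 libraries, and control 3 lay within the range of the treated libraries. The log2 changes against control were 0.38 (95% interval -0.03 to 0.79) for preconditioning+FCCP, 0.29 (-0.12 to 0.70) for FCCP and 0.36 (-0.03 to 0.74) for preconditioning, each short of a call.

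Of the outer membrane channels, VDAC1 and VDAC3 were lower in preconditioning+FCCP than in control libraries, while VDAC2 was not called in any comparison. VDAC1 (ENSG00000213585), the most abundant isoform here and a docking site for hexokinases, had 201, 209 and 364 CPM in preconditioning+FCCP libraries, against 478, 553 and 345 CPM in control libraries. FCCP libraries had 430, 322 and 286 CPM, and preconditioning libraries 302, 303, 372 and 254 CPM. Preconditioning+FCCP 3 lay above control 3, so the groups overlap, but within each library set the preconditioning+FCCP libraries were below the controls. VDAC1 fell in preconditioning+FCCP against control, with a log2 change of -0.83 ± 0.26, a fold of 0.563 and an adjusted p of 0.0228. In this comparison 3 of the 9 genes were called, all lower, where 31.2% of tested genes were called and 16.2% were called lower. Leaving out control 1, control 2, preconditioning+FCCP 1 or preconditioning+FCCP 2 ended the call of VDAC1, with log2 changes of -0.83, -0.70, -0.70 and -0.73 and adjusted p of 0.0586, 0.0927, 0.0923 and 0.0962, in that order. The library set term kept it, with -0.62 (adjusted p = 0.0199), and in the fit of the compared groups alone the adjusted p was 0.0768.

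VDAC3 (ENSG00000078668) had 111, 130 and 154 CPM in preconditioning+FCCP, 149, 181 and 186 CPM in FCCP, 135, 124, 167 and 122 CPM in preconditioning, and 261, 277 and 146 CPM in control libraries. Controls 1 and 2 lay above all other libraries, while control 3 lay among the treated ones. VDAC3 fell in preconditioning+FCCP against control, with a log2 change of -0.79 ± 0.23, a fold of 0.579 and an adjusted p of 0.0169. Without control 1, control 2, preconditioning+FCCP 1 or preconditioning+FCCP 2 the log2 change was -0.72, -0.65, -0.70 and -0.81 in that order, and the adjusted p 0.0593, 0.0737, 0.0640 and 0.0527. It also fell in preconditioning against control, with a log2 change of -0.74 ± 0.21 (adjusted p = 0.0212), as the single one of the 9 genes called where 23.6% of genes were called and 13% were called lower. This second call was lost without control 1, control 2, preconditioning 1, preconditioning 2 or preconditioning 4 (adjusted p of 0.102, 0.115, 0.0555, 0.0633 and 0.0595, log2 changes of -0.73 to -0.57). With the library set term it was -0.27 (adjusted p = 0.484). Within the lower-share set the preconditioning libraries had 122 to 167 CPM, on both sides of the 146 CPM of control 3, so the difference was not seen within that set.

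VDAC2 (ENSG00000165637), the isoform known to hold BAK at the outer membrane, had 167, 161 and 214 CPM in preconditioning+FCCP, 222, 175 and 181 CPM in FCCP, 146 to 176 CPM in preconditioning, and 134, 190 and 178 CPM in control libraries. The 4 groups overlap. Its log2 changes over the 5 pairwise comparisons were -0.11 to 0.22, and no alternative setting called it. Counts of processed copies could blur these genes: 13 annotated copies of VDAC1 summed to 0.276% of its counts, and 5 copies of VDAC2 to 0.613%. Reads aligned to several places were left out, so these shares do not measure reads that the genes lost to such copies. The ratio of VDAC1 to VDAC2 per length was 1.25 ± 0.231 in preconditioning+FCCP, 1.60 ± 0.165 in FCCP, 1.77 ± 0.161 in preconditioning and 2.50 ± 0.734 in control libraries. It was 3.18 and 2.60 in controls 1 and 2 but 1.73 in control 3, within the range of the preconditioning libraries (1.53 to 1.89).

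The largest log2 change among the 9 genes was that of cyclophilin D, in preconditioning followed by FCCP against preconditioning alone. PPIF (ENSG00000108179) had 85.5, 75.0 and 75.1 CPM in preconditioning+FCCP libraries, against 193, 210.0, 219 and 187 CPM in preconditioning libraries. FCCP libraries had 73.7, 85.9 and 118 CPM, and control libraries 116, 132 and 177 CPM. The preconditioning+FCCP libraries lay below all preconditioning and all control libraries and within the range of the FCCP libraries. PPIF fell in preconditioning+FCCP against preconditioning, with a log2 change of -1.36 ± 0.19, a fold of 0.388 and an adjusted p of 0.000103. In that comparison 39.4% of genes were called (20.2% higher and 19.2% lower), 2 of the 9 genes among them (PPIF lower, MCUB higher), and in 26.2% of genes all preconditioning+FCCP libraries lay below all preconditioning libraries. All 25 alternatives kept the call, with log2 changes of -1.45 to -1.26. Within the lower-share set the values were 85.5 and 75.0 CPM in preconditioning+FCCP, against 187 to 219 CPM in preconditioning libraries.

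PPIF also fell in preconditioning+FCCP against control, with a log2 change of -0.85 ± 0.20, a fold of 0.554 and an adjusted p of 0.00538. The groups do not overlap, as was so for 18.2% of genes in that direction, and 25 of 25 alternatives kept the call with log2 changes of -1.01 to -0.67. Against FCCP the log2 change of preconditioning+FCCP was -0.24 (95% interval -0.66 to 0.18), with an adjusted p of 0.361. FCCP against control gave -0.61 (-1.03 to -0.19), with an adjusted p of 0.0957. Preconditioning against control gave 0.51 (0.12 to 0.91), with an adjusted p of 0.0574, although all 4 preconditioning libraries lay above all control libraries, as was so for 19.4% of genes in that direction.

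The interaction for PPIF was -0.75 ± 0.27 on the log2 scale (95% interval -1.33 to -0.17), with an adjusted p of 0.0633. It thus missed the threshold, where 19% of genes were called. None of the 9 genes was called in the interaction by edgeR, 1 of them (PPIF) had an unadjusted p under 0.05, DESeq2 called PPIF (adjusted p = 0.0452) and limma-voom called none. The interaction of PPIF was past the threshold in 5 of 24 alternatives, with log2 values of -1.05 to -0.56 and adjusted p of 0.00149 to 0.162 over the 24. The adjusted p was 0.0215 without FCCP 1, 0.0133 without control 3 and 0.0291 with the library set term, and 0.141 with library totals, 0.0999 with no filter and 0.162 without FCCP 3.

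**Figure D4:**
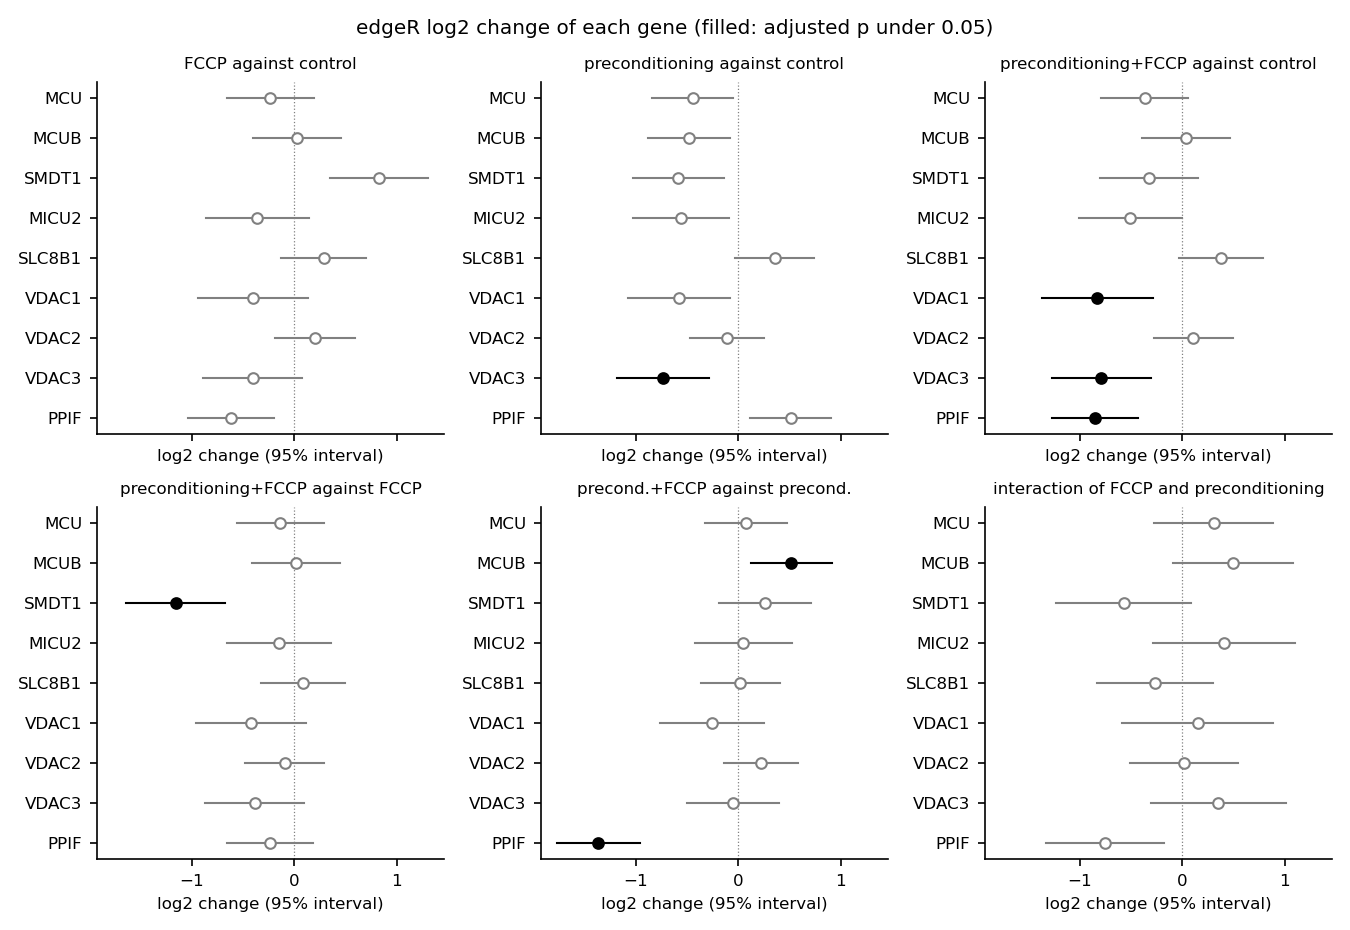
Log2 change of each of the 9 genes with its 95% interval in the 5 pairwise comparisons and the interaction, from edgeR's quasi-likelihood fit of 13 libraries. Filled points had an adjusted p under 0.05: VDAC3 in preconditioning against control, VDAC1, VDAC3 and PPIF in preconditioning+FCCP against control, SMDT1 in preconditioning+FCCP against FCCP, and MCUB and PPIF in preconditioning+FCCP against preconditioning.

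Over the 9 genes, the median log2 change was -0.37 in preconditioning+FCCP against control, -0.48 in preconditioning against control and -0.23 in FCCP against control. The medians of all tested genes were -0.04, -0.02 and -0.04 in the same comparisons. In preconditioning+FCCP against FCCP the median of the 9 genes was -0.15, beside 0.01 for all genes, and in preconditioning+FCCP against preconditioning it was 0.05, beside 0.02. The 3 comparisons with control share the same control libraries, so these medians are not independent of each other. With the library set term, preconditioning against control gave -0.042 for MCU, -0.22 for MCUB, -0.11 for SMDT1 and -0.0071 for MICU2. It gave 0.18 for SLC8B1, -0.082 for VDAC1, -0.030 for VDAC2, -0.27 for VDAC3 and 0.32 for PPIF. The median of all tested genes with that term was -0.017.

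How many of the 9 genes were called in preconditioning and in preconditioning+FCCP against control depended on control 3. Other libraries mattered too, as in the calls of VDAC1 and VDAC3 above. In MCU, MCUB, SMDT1, MICU2, VDAC1 and VDAC3 control 3 lay below controls 1 and 2, and in SLC8B1 and PPIF above them. Without it, preconditioning against control called 8 of the 9 genes, all but VDAC2, and the share of all tested genes called was 34.8%, beside 23.6% with it. MCU, MCUB, SMDT1, MICU2, VDAC1 and VDAC3 were then lower, with log2 changes of -0.68, -0.71, -0.80, -0.79, -0.75 and -0.98, and SLC8B1 (0.53) and PPIF (0.70) were higher. In that fit all preconditioning libraries lay in the lower-share set and both controls in the higher-share set, so treatment and library set cannot be told apart. With the library set term and all 13 libraries, no gene of the 9 was called, with log2 changes of -0.27 (VDAC3) to 0.32 (PPIF). Preconditioning+FCCP against control called 7 of the 9 genes without control 3, all but MCUB and VDAC2, and 38.2% of all tested genes, beside 31.2% with it. There MCU (-0.63), SMDT1 (-0.57), MICU2 (-0.76), VDAC1 (-1.03), VDAC3 (-1.06) and PPIF (-0.70) were lower and SLC8B1 (0.53) higher. In this comparison only preconditioning+FCCP 3 shared the library set of controls 1 and 2. FCCP against control called 0 of the 9 genes with and without control 3, and 4.8% of all tested genes without it. There the log2 change without control 3 was 0.60 for SMDT1 (adjusted p = 0.111), -0.67 for VDAC3 (0.0554), -0.48 for MCU (0.104), -0.60 for MICU2 (0.121), -0.45 for PPIF (0.178), 0.45 for SLC8B1 (0.178) and 0.23 for VDAC2 (0.542), while VDAC1 was at -0.59 and not called and MCUB turned to -0.22 (0.472). The interaction called MCUB and PPIF without control 3, where 23% of all tested genes were called. Preconditioning+FCCP against preconditioning called 2 of the 9 genes with and without control 3. Control libraries enter that comparison only through the shared fit of 13 libraries, yet leaving out control 2 ended its call of MCUB.

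**Figure D5:**
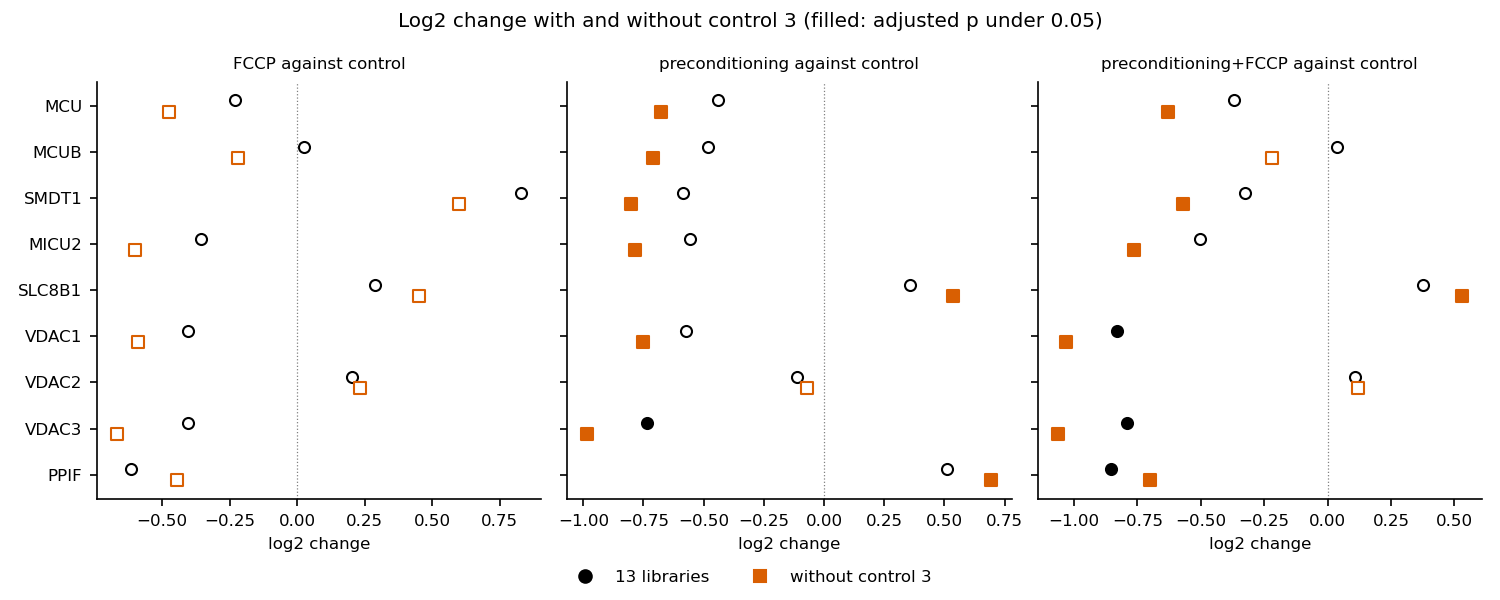
Log2 change of each of the 9 genes in FCCP, preconditioning and preconditioning+FCCP against control, from all 13 libraries (circles) and without control 3 (squares), filled where the adjusted p was under 0.05. Without control 3, 0 genes are filled in FCCP against control, 8 in preconditioning against control and 7 in preconditioning+FCCP against control, compared with 0, 1 and 3 in the fit of all libraries. Without control 3, the preconditioning and control libraries lie in different library sets.

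Around these genes, 6 lists with 88 genes of calcium handling, outer membrane permeability and cyclophilins were followed. Among regulators of the uniporter and exchangers of the inner membrane (14 tested), 5 rose and 2 fell in preconditioning+FCCP against FCCP, and the list had a median log2 change of 0.03. In this comparison 35.7% of all tested genes were called. SLC25A23, a calcium-regulated carrier of ATP and magnesium that binds MCU, fell (-1.69 ± 0.24, adjusted p = 0.000297), as did STOML2, a scaffold of the inner membrane (-0.80 ± 0.17, adjusted p = 0.00247). STOML2 lost the call with the length and GC trend. AFG3L2, a subunit of the protease that clears unassembled EMRE, rose (1.03 ± 0.28, adjusted p = 0.0101), and this call was lost without FCCP 2, without preconditioning+FCCP 1 and with the library set term (log2 changes of 0.35 to 1.40 and adjusted p up to 0.197 over 25 alternatives). In preconditioning+FCCP against preconditioning, where 39.4% of all tested genes were called, 2 rose and 3 fell. SLC25A23 (-1.31 ± 0.22) and the related SLC25A24 (-1.13 ± 0.23) were lower and GHITM (0.65 ± 0.15), a proton-coupled calcium antiporter, was higher. In FCCP against control, where 3.52% of all tested genes were called, 1 of the 14 was called, SLC25A23 (1.04 ± 0.23, adjusted p = 0.0265). This call was lost without control 2, FCCP 2 or FCCP 3 (log2 changes of 0.77 to 1.24 and adjusted p up to 0.198 over 25 alternatives). It was also lost with the replicate block, the length and GC trend and the compared groups alone.

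Of 21 tested genes of calcium release, refilling and contacts with the endoplasmic reticulum, 8 rose and 2 fell in preconditioning+FCCP against FCCP, with a list median of 0.57. In this comparison 35.7% of all tested genes were called. ORAI2, a store-operated calcium channel, was lower (-1.39 ± 0.25), and PDZD8, a tether at contacts (1.31 ± 0.25), and HSPA9, the chaperone that links VDAC1 to the inositol trisphosphate receptor (0.93 ± 0.19), were higher. In preconditioning+FCCP against preconditioning, where 39.4% of all tested genes were called, 5 rose and 3 fell. Among them were ORAI2 (-2.19 ± 0.24), ATP2A1, a calcium pump of the reticulum (2.05 ± 0.27), and TMCO1, a calcium leak channel (1.00 ± 0.15). At the plasma membrane, 1 rose and 4 fell of 5 tested genes in the same comparison. ATP2B4, a calcium pump (-2.23 ± 0.20), and the sodium-calcium exchanger SLC8A1 (-1.16 ± 0.23) were lower, and SLC8A2 (4.48 ± 0.89) was higher.

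Of VDAC partners and regulators of outer membrane permeability (12 tested), 2 were higher and 5 lower in preconditioning+FCCP against FCCP, and 3 were called, all lower, in preconditioning+FCCP against preconditioning. In preconditioning+FCCP against control 1 was higher and 3 lower, in preconditioning against control 2 were higher and 0 lower, and in FCCP against control 2 were higher and 1 lower. The shares of all tested genes called were 35.7%, 39.4%, 31.2%, 23.6% and 3.52%, in the order in which these comparisons were named. TUBB, a tubulin (-1.91 ± 0.24), the translocator TSPO (-1.47 ± 0.25) and the pore-forming BAX (-1.19 ± 0.20) fell against FCCP. TUBB (-1.78 ± 0.23), the hexokinase HK1 (-1.45 ± 0.20) and the anti-apoptotic BCL2L1 (-1.07 ± 0.18) fell against preconditioning. In FCCP against control BCL2 was lower (-2.06 ± 0.45) and TSPO (0.96 ± 0.25) and BAX (0.78 ± 0.20) were higher. Every one of these 3 calls was lost without FCCP 2 or FCCP 3, and BCL2 also without control 2. TSPO was also lost without control 1, control 3, any of the 4 preconditioning libraries or preconditioning+FCCP 1 or 2, and BAX without control 1, control 2, any of the 4 preconditioning libraries or preconditioning+FCCP 2. All 3 calls were lost with the replicate block and with the compared groups alone. BCL2 and BAX were lost with limma-voom, TSPO and BAX with the length and GC trend, and BAX with library totals and the library set term. Over the 25 alternatives the log2 changes were -2.38 to -1.76 for BCL2, 0.62 to 1.18 for TSPO and 0.54 to 0.99 for BAX, with adjusted p up to 0.209, 0.201 and 0.216 in that order.

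In preconditioning+FCCP against FCCP, 35.7% of all tested genes were called and 17.7% were called lower. Among 11 tested inner membrane partners of cyclophilin D, 6 were called there and all of these fell, with a list median of -0.72. They include ATP5MC1 (-1.20 ± 0.20), ATP5MC2 (-1.06 ± 0.24) and ATP5MC3 (-0.73 ± 0.16), which encode the same c subunit of ATP synthase. In preconditioning against control 3 of the 11 fell, led by ATP5PO (-1.47 ± 0.29), the subunit to which cyclophilin D binds. In that comparison 23.6% of all tested genes were called and 13% were called lower. Of the 16 other cyclophilins, 3 rose and 4 fell in preconditioning+FCCP against FCCP, with PPIC (-1.18 ± 0.23) and PPIA (-1.24 ± 0.30) lower and PPID (1.57 ± 0.39) higher. PPID lost the call with the library set term. In preconditioning+FCCP against preconditioning, where 39.4% of all tested genes were called, 5 rose and 1 fell. PPIL3 (1.04 ± 0.20) and PPIH (1.18 ± 0.24) were higher and PPIL2 (-1.18 ± 0.18) lower, and the list median was 0.43, beside a change of -1.36 for PPIF. In preconditioning against control, 5 cyclophilins were called and all of these fell, led by PPIH (-1.35 ± 0.24), PPIL3 (-1.05 ± 0.20) and PPIL4 (-1.02 ± 0.21), while PPIF was at 0.51. Of the 17 pathway genes named by the rule in preconditioning against control, PPIH was the 1 that kept its call in all 25 alternatives, and the other 16 lost it with the library set term. PPIA and TUBB have many processed copies, so that their levels are less certain. All adjusted p of the genes named from the 5 lists after the first lay at or under 0.0469.

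Levels of the 9 genes were also compared across the 13 libraries, which share treatment, library set and scaling, so the correlations are descriptions. MCU and MICU2 had the highest correlation of log2 CPM (Pearson r 0.886), followed by MICU2 and VDAC3 (0.877) and MCU and VDAC3 (0.859). SLC8B1 ran against MCU (-0.824), VDAC1 (-0.795) and VDAC3 (-0.723), and PPIF against MCUB (-0.743). SMDT1 had r of 0.517 with MCU and 0.587 with MCUB.

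Among 10864 candidate genes, those most like PPIF in log2 CPM were PPP4R1 (r = 0.979) and NLRP10 (0.977), and those most like SMDT1 were HMG20B (0.968) and RPL3 (0.967), a ribosomal protein. VDAC3 was most like TRNAU1AP (0.962) and ZNF22 (0.951), VDAC1 most like VIM (0.947) and RPL23AP7 (0.930), and VDAC2 most like TMEM222 (0.886) and GTF2E2 (0.882). The nearest to MCU were SEC31A and PPHLN1 (both 0.948), the nearest to MCUB were H1-10 and RHNO1 (both 0.949), and the nearest to MICU2 were LRRC40 (0.923) and PCOLCE2 (0.921). SLC8B1 had the lowest such values, with CDC26 (0.876) and MICA (0.872).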

How the data were processed

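The 13 RNA-seq libraries were grouped by the treatment in the labels. A column kit and poly-T beads were used to isolate mRNA per the labels' protocols, and second strands were made in a directional or a non-directional way, without saying which. The authors deposited 1 table of unnormalised counts per library. The submitters' processing notes name HISAT2, HTSeq and hg19 with no versions. GENCODE 29 lacks 5013 of the 63241 gene IDs, the authors' annotation release was therefore not identified, and no gene coordinates on hg19 are printed. Reads outside genes (2.13% to 5.20% per library), over several genes (11.0% to 12.4%) or aligned to several places (3.16% to 11.5%) have rows that name no gene and were left out.

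Genes were kept with the default filter of edgeR (16756 genes), and edgeR's quasi-likelihood test (4.0.16, R 4.3.3) was run on TMM-scaled counts, with group as the term and the 13 libraries in 1 model. P-values were adjusted by the Benjamini-Hochberg method over these genes, with a call at an adjusted p under 0.05, and printed values come from it where no other tool is named. The standard error was computed as the absolute log2 change over the root of the F statistic. Levels are CPM after TMM scaling, and levels per length use the summed exon length in GENCODE 29. Likeness is Pearson's r of log2 CPM (prior count 2) among genes of at least 5 mean CPM. The functions were tested on simulated counts. Total counts per library limit the precision of low genes, and intervals cover the spread between libraries.

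Alternatives were DESeq2 size factors, library totals, no filter, 1 CPM in 3 libraries, DESeq2 (1.42.0), limma-voom (3.58.1), the compared groups alone, mitochondrial genes left out, a replicate block, a term for the library set, a length and GC trend taken out (values for 96.5% of tested genes), each library left out in turn, and a fit that drops control 3, FCCP 1 and preconditioning+FCCP 3 at once. The genes, the pathway and marker lists, the library sets and the last of these alternatives were chosen with earlier results of these data known. The text names all 9 genes, at most 3 called members per pathway list and comparison with the smallest adjusted p, and the 2 genes most like each of the 9. Promoters are from RefSeq, build GRCh38.p14.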

Additional observations from a re-analysis of the deposited data

Results flagged for a closer look

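Within the preconditioning group, VDAC2 was higher in library 3 than in the others. The level was 176 CPM in preconditioning 3, against 146, 150.02 and 148 CPM in preconditioning 1, 2 and 4, and the gap to the nearest library was 0.865 of the range of the group. Only groups of 4 or more libraries were examined in this way, so preconditioning was the single group open to it, and chance gives such a gap in about 1 of 20 looks. The 9 genes were each looked at in this group, so 1 such gap is close to what chance gives.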

How the results depend on the processing

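Of the 7 calls among the 9 genes, those of SMDT1 in preconditioning+FCCP against FCCP and of PPIF in preconditioning+FCCP against preconditioning and against control were kept in all 25 alternatives. VDAC1 and VDAC3 in preconditioning+FCCP against control kept theirs in 20, VDAC3 in preconditioning against control in 18 and MCUB in 11. The causes of the changes below were not tested.

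Of the 9 genes, FCCP against control called 0 in the fit of all libraries, 1 with library totals, no filter, 1 CPM in 3 libraries, DESeq2, limma-voom or the length and GC trend, 2 with the library set term, and 6 without control 3, FCCP 1 and preconditioning+FCCP 3. Preconditioning against control called 1, and 2 with 1 CPM in 3 libraries, limma-voom or the length and GC trend, 3 with DESeq2, 4 with the compared groups alone, 0 with the library set term and 8 without the 3 libraries. Preconditioning+FCCP against control called 3, and 1 with the compared groups alone and 7 without the 3 libraries. Preconditioning+FCCP against FCCP called 1, and 3 without them. Preconditioning+FCCP against preconditioning called 2, and 1 with no filter or the length and GC trend. The interaction called 0, and 1 with DESeq2, 2 with the library set term and 4 without the 3 libraries. Without the 3 libraries, all preconditioned libraries lay in the lower-share set and all others in the higher-share set, so preconditioning and library set cannot be told apart. Leaving out 1 library at a time gave 0 to 1 for FCCP against control, 0 to 8 for preconditioning against control, 1 to 7 for preconditioning+FCCP against control, 1 to 2 for preconditioning+FCCP against FCCP, 1 to 2 for preconditioning+FCCP against preconditioning and 0 to 2 for the interaction.

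Same-numbered libraries did not deviate together (correlations of deviations -0.20 to 0.158, 1 of 18 pairs over 0.1). These deviations also carry the split by library set, which does not follow the numbers, so they cannot exclude pairing. The labels do not say what the numbers mark, and they were not taken to pair libraries. With the replicate block, preconditioning against control called 0 of the 9 genes and preconditioning+FCCP against preconditioning 1 of them, VDAC3 having a log2 change of -0.69 (adjusted p = 0.0927) and MCUB one of 0.54 (adjusted p = 0.0795). The interaction of VDAC2 was -0.017 with the block.

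Small, uncalled log2 changes changed sign in some settings. For MCU, preconditioning+FCCP against FCCP was 0.041 with library totals and 0.22 with the library set term, and preconditioning+FCCP against preconditioning was -0.10 with that term and -0.043 without the 3 libraries. For MICU2, preconditioning+FCCP against FCCP was 0.011 with library totals and 0.32 with the library set term, and preconditioning+FCCP against preconditioning was -0.24 with that term, -0.12 with the length and GC trend and -0.24 without the 3 libraries. For MCUB, FCCP against control was -0.060 with the library set term and -0.19 without the 3 libraries, preconditioning+FCCP against control was -0.18 without them, and preconditioning+FCCP against FCCP was -0.0024 with 1 CPM in 3 libraries and -0.10 with the length and GC trend. For SLC8B1, preconditioning+FCCP against FCCP was -0.10 with the library set term. For VDAC3, preconditioning+FCCP against FCCP was 0.025 with that term and preconditioning+FCCP against preconditioning 0.026 with library totals. For VDAC2, preconditioning+FCCP against FCCP was 0.080 with library totals, preconditioning+FCCP against control -0.027 without the 3 libraries, preconditioning against control 0.029 with the length and GC trend, and the interaction -0.010 with no filter, -0.067 with the length and GC trend and -0.054 without the 3 libraries.

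With 1 library left out, sign changes lay within -0.069 to 0.18 for VDAC2 and -0.22 to 0.13 for MCUB in preconditioning+FCCP against control, and within -0.079 to 0.050 for MCUB, -0.26 to 0.020 for VDAC2 and -0.43 to 0.053 for MICU2 in preconditioning+FCCP against FCCP. In preconditioning+FCCP against preconditioning the ranges were -0.078 to 0.063 for SLC8B1, -0.21 to 0.056 for VDAC3, -0.044 to 0.11 for MCU and -0.24 to 0.24 for MICU2. In the interaction they were -0.20 to 0.34 for VDAC1 and -0.14 to 0.14 for VDAC2, and in FCCP against control -0.22 to 0.13 for MCUB.

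The shares of all tested genes called moved with these settings too. Without the 3 libraries they were 18.1% in FCCP against control (3.52% in the fit of all libraries), 48.9% in preconditioning against control (23.6%), 51% in preconditioning+FCCP against control (31.2%), 53.9% in preconditioning+FCCP against FCCP (35.7%) and 37.3% in the interaction (19%). With the library set term they were 5.6%, 2.74%, 30.1%, 21.7% and 26.9% in that order. DESeq2 gave shares of 8.44% in FCCP against control, 28.1% in preconditioning against control and 24.1% in the interaction. With the compared groups alone the shares were 0.111%, 30.5% and 19.2% in FCCP, preconditioning and preconditioning+FCCP against control. Over all genes, the number called ranged with the setting from 17 to 3113 (590 in the fit of all libraries) in FCCP against control, 459 to 8405 (3950) in preconditioning against control, 3010 to 8767 (5229) in preconditioning+FCCP against control, 3629 to 9276 (5976) in preconditioning+FCCP against FCCP, 5004 to 8285 (6594) in preconditioning+FCCP against preconditioning and 1897 to 6421 (3180) in the interaction.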

Other observations

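In the interaction of FCCP and preconditioning, 19% of all tested genes were called by edgeR, and 0 of the 9 genes were. Of the 9 genes, 1 had an unadjusted p under 0.05, DESeq2 called 1 and limma-voom called 0. Several genes of the pathway lists were past the threshold. Those named below are among the at most 3 called members per list with the smallest adjusted p. Whether these lists held a larger share of calls than all tested genes was not tested. SLC25A23, the ATP and magnesium carrier, was at -2.35 ± 0.32 on the log2 scale (SE, adjusted p = 0.000545), and STOML2 at -1.02 ± 0.23. At other membranes, the store-operated channel ORAI2 was at -2.17 ± 0.33 and the plasma membrane calcium pump ATP2B4 at -1.92 ± 0.28, while the reticulum pump ATP2A1 (1.79 ± 0.39) and the leak channel TMCO1 (1.04 ± 0.22) were positive. Among VDAC partners, TUBB (-1.55 ± 0.32) and HK1 (-1.26 ± 0.28) were negative and BCL2 (2.35 ± 0.58) was positive. The cyclophilins PPWD1 (1.23 ± 0.23), PPIL4 (1.41 ± 0.31) and PPIL3 (1.30 ± 0.30) were positive, whereas PPIF was at -0.75 ± 0.27 and not called. A negative value means that the change with FCCP was lower after preconditioning than without it. Of the 15 genes that the naming rule gives here, these 12 kept their calls in all 24 alternatives run for the interaction, with adjusted p-values of at most 0.0113 in the fit of all libraries. The other 3, GHITM, ATP5MC3 and SLC25A5, kept theirs in 18, 14 and 10 of the 24, in that order.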
